A study of Rattus norvegicus with 4 samples.

Results

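Genes of acute phase and antiprotease proteins were described across the vessels of rats with and without protein kinase C beta (PKCbeta), with and without angiotensin II (Ang II). They are 9 of the 16580 genes that could be named on the array. They were selected by name: the lipocalins Orm1 and Lcn2, the haemoglobin and copper carriers Hp and Cp, the antiproteases Slpi, Serpina3n and A2m, the pentraxin Ptx3, and the scavenger receptor Olr1. Orm1, Slpi and Olr1 were chosen by their low values in KO vessels, so their KO against WT ratios are given as a description. KO Ang II vessels came from male rats with the PKCbeta deletion and were treated with Ang II for 24 h, and KO control vessels came from the same genotype without Ang II. WT Ang II and WT control vessels came from male Wistar rats, treated and untreated in the same way. The design names 4 rats of each genotype, but only 1 array was hybridised per group, and the sources used here do not say whether RNA of several rats was pooled, which vessel was taken or how many founder lines carry the deletion. Each ratio below therefore sets 1 array against 1 array, with no replicate check and no p-value.

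Acute phase proteins are secreted proteins whose amounts in plasma shift during inflammation. The liver makes most of them, driven by interleukin-6 acting through STAT3, and by interleukin-1 and tumour necrosis factor acting through NF-kB and C/EBP factors. Several are also made locally, by macrophages, fibroblasts, smooth muscle and endothelium of inflamed tissue. Antiproteases such as Slpi and Serpina3n hold in check the serine proteases that leukocytes release. In vessels, Ptx3 is made on the spot by stimulated endothelial and smooth muscle cells, and Olr1 (LOX-1) takes up oxidised low-density lipoprotein. Olr1 is a membrane receptor of the C-type lectin type, so the name acute phase secreted protein does not strictly cover it.

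Levels are processed signals of the scanner, which are background-subtracted brightness values, and ratios are log2 differences after each array was scaled to its 75th percentile. That percentile was 52.1 and 47.3 for KO Ang II and KO control, against 62.4 and 58.7 for WT Ang II and WT control, so equal raw signals stand for a higher scaled level in KO. Between 40.7% and 43.6% of probes were well above background per array, and no spot was saturated. The 4 arrays share a slide and a scan time, so neither separates the groups, but position on the slide cannot be told apart from the group. A gene is called detected on an array below where its probe was well above background. Prkcb, the gene of the deleted kinase, had a signal of 1.88 in KO Ang II and 1.93 in KO control, against 17.8 in WT Ang II and 14.7 in WT control. Both KO signals were not well above background, which places Prkcb at least 1.81-fold lower in KO with Ang II and at least 1.43-fold lower without. The bounds rest on the lowest signal well above background on each array, which was 7.92 to 8.31.

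Of the 9 genes, 8 were detected on every array. A2m, alpha-2-macroglobulin, a broad protease trap that is a major liver acute phase protein of the rat, was not well above background on any array with either of its 2 probes. None of the 9 hepatocyte markers measured, Alb and Apoa1 among them, was above background either, nor was any of 9 neutrophil markers, among them S100a8 and S100a9. The scanner's own error on the 8 genes was 7.07% to 15.4% of the signal. It covers the reading of a spot and not the spread between animals.

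The 4 genes with the lowest KO to WT ratios with Ang II were Orm1, Olr1, Slpi and Ptx3. The promoter of 3 of them is shown with that of Lcn2, which shared their higher level with Ang II in WT. Promoters come from RefSeq on the GRCr8 assembly and run 250 bases before to 50 after the start. Entries were matched for 6 of the 9 genes, and Slpi, Hp and A2m were not matched. Motifs of 6 kinds were searched on both strands in all 33469 promoters, and capitals mark every match in the 5′ to 3′ direction of the gene. The motifs were GGGNNNNNCC (NF-kB-like), TTGCNNAA (C/EBP-like), TTCNNNGAA (STAT-like), CTGGGAA (the core of the interleukin-6 element), TGANTCA (AP-1-like) and TATAAA (the core promoter box). Overlapping matches are merged into 1 run of capitals.
Orm1, chr5:81788259-81788558, plus strand: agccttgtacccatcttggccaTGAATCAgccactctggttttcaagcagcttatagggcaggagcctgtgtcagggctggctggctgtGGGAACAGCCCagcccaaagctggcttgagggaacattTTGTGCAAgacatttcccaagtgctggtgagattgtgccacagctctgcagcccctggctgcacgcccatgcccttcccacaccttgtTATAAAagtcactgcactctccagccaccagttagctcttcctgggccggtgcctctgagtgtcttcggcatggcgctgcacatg
Lcn2, chr3:36081731-36082030, minus strand: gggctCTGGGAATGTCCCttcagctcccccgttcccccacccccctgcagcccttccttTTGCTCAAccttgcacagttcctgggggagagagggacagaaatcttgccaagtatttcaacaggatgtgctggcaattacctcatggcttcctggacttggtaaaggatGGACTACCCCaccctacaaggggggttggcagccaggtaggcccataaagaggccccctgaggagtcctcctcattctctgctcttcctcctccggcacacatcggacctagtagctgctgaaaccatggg
Ptx3, chr2:152797313-152797612, plus strand: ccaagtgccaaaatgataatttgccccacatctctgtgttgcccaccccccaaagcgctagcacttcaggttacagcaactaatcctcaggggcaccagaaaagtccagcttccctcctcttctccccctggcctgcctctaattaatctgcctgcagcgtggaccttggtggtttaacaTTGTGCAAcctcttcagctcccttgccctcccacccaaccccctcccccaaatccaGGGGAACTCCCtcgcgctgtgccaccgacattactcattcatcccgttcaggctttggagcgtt
Olr1, chr4:164634498-164634797, minus strand: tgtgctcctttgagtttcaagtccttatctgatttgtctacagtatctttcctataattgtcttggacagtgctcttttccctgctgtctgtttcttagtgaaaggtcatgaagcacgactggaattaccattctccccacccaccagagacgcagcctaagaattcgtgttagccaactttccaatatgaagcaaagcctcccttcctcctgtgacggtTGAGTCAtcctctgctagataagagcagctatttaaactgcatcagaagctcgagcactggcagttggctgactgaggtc

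The C/EBP-like letters stood in 4 of the 6 promoters and in 10.6% of all promoters. In Orm1 and Ptx3 they lie on the opposite strand and read TTGTGCAA along the gene, at 123 and 70 bases before the start, and Cp holds the same 8 letters 72 bases before its own. Lcn2 reads TTGCTCAA at 191 bases before the start. The NF-kB-like letters stood in 4 of 6 (Orm1, Lcn2, Serpina3n and Ptx3), but also in 47.3% of all promoters. In Ptx3 2 overlapping matches began 14 and 13 bases before the start. The AP-1-like letters were found in Orm1 and Olr1, at 228 and 30 bases before the start, against 7.33% of all promoters. Lcn2 and Serpina3n hold the interleukin-6 element core (11.3% of all), Serpina3n alone of the 6 the STAT-like letters (8.87% of all), and Orm1 and Cp a TATA match (14.2% of all). In Lcn2 the interleukin-6 core overlaps an NF-kB-like match, and in Serpina3n it overlaps the STAT-like one. A match is a run of letters, and no binding was measured.

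Slpi, a small inhibitor of neutrophil elastase and cathepsin G, was low on both KO arrays. Its brighter probe gave signals of 57.3 in KO Ang II and 55.1 in KO control, against 380 in WT Ang II and 208 in WT control. The KO arrays lay close to each other and below both WT arrays, and WT Ang II was the highest. The log2 ratio of KO to WT was −2.47 with Ang II (5.54-fold lower, scanner error 0.21) and −1.60 without (3.04-fold lower, error 0.21). The second Slpi probe gave 40.9, 39.6, 339 and 187 on KO Ang II, KO control, WT Ang II and WT control, and ratios of −2.79 and −1.93 with and without Ang II. Both probes placed KO lower by more than the scanner error. Slpi was chosen for low values in KO, so this is a description only. Ang II over control was −0.08 on the log2 scale in KO and 0.78 in WT (1.72-fold) by the brighter probe.

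Serpina3n, a serpin that inhibits leukocyte proteases in mouse, differed little between the groups. Its signals of 13034 in KO Ang II and 12427 in KO control, against 15001 in WT Ang II and 13690.1 in WT control, were within a narrow range. After scaling, the log2 ratio of KO to WT was 0.06 with Ang II and 0.17 without, and that of Ang II to control was −0.07 in KO and 0.04 in WT. The KO and WT ratios for Ang II lay within the scanner error of 0. Of the related serpins, Serpina3m, Serpina3c and Serpina1 were not well above background on any array. Nor were Pzp and Mug1, which are relatives of A2m. Reads of a related serpin RNA by the Serpina3n probe were not tested.

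Other protease inhibitors were taken as a list of 31 genes, of which 29 had a probe and 18 were detected somewhere. With Ang II, 15 of 17 compared lay below 0 in KO over WT, with a median of −0.47 and 1 past 2-fold. Over all named genes the median was −0.04, with 53.4% below 0 and 4.42% at least 2-fold lower. Serpinf1 (pigment epithelium-derived factor) had a ratio of −1.11, Tfpi, the inhibitor of tissue factor, −0.96 and Pi15 −0.88. Serpinb8, not detected in KO, had a bound of −0.98. Without Ang II, 11 of 17 lay below 0, beside 48.8% of all named genes, with a median of −0.08 and none past 2-fold. Ang II over control was below 0 for 12 of 15 in KO (median −0.22), beside 51.1% of all. In WT it was above 0 for 12 of 18 (median 0.21), while 44.9% of all were below 0. Tfpi2, a Kunitz inhibitor, was the 1 gene of the list past 2-fold in WT, at 1.42, against −0.03 in KO. Among all genes 1.43% were at least 2-fold higher in WT. Pi16 gave −0.47 in KO and 0.77 in WT. Timp1, the metalloproteinase inhibitor, was at −0.28 in KO and 0.30 in WT. Proteases of leukocytes were mostly not detected. The list of neutrophil and mast cell proteases also held the kallikreins Klkb1 and Klk1, which are not proteases of those cells. Of its 12 genes with a probe, 3 were detected somewhere. These were Klkb1, and Mmp9 and Cma1 on WT Ang II alone. Elane, Prtn3, Ctsg and Tpsab1 were not detected on any array.

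Orm1, alpha-1-acid glycoprotein, a lipocalin that binds drugs and lipids in plasma, had the lowest KO to WT ratio of the 8 with Ang II, whereas Olr1 was lower without. With normexp and quantile normalization together, Orm1 was at −1.22 with Ang II, above Olr1, Slpi and Ptx3 (−1.57 to −1.65). It read 16.4 in KO Ang II and 19.4 in KO control, against 148 in WT Ang II and 88.4 in WT control. Both KO arrays were low and did not overlap the WT arrays. The log2 ratio of KO to WT was −2.92 with Ang II (7.54-fold lower, error 0.27), rank 3 from the lowest of 8898 genes measured on both arrays. Without Ang II it was −1.88 (3.67-fold lower, error 0.26), rank 18 of 8770. Orm1 was chosen for low values in KO, so nothing is read from these ranks. Ang II over control was −0.38 in KO, with a scanner error of 0.31, and 0.65 in WT, with an error of 0.21. The scanner error of its KO Ang II signal was the largest of the set, at 15.4%.

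Lcn2, neutrophil gelatinase-associated lipocalin, which withholds siderophore iron from bacteria, did not share that pattern. It read 37.1 in KO Ang II and 38.5 in KO control, against 58.4 in WT Ang II and 31.0 in WT control. The KO arrays lay between the WT arrays, in signal and after scaling. KO over WT was −0.40 with Ang II and 0.63 (1.54-fold higher) without, so the direction differed between the treatments. Ang II over control was −0.20 in KO, under its scanner error of 0.22, and 0.83 (1.77-fold) in WT, rank 222 from the highest of 9122 genes. Its cell surface receptor Slc22a17 was 0.18 in KO over WT with Ang II and 0.51 without. Apod, another lipocalin, was lower in KO with Ang II (log2 ratio −1.72) and higher with Ang II in WT (1.49). Its signals were 12.7 in KO Ang II and 9.48 in KO control, against 50.1 in WT Ang II and 16.8 in WT control.

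**Figure D1:**
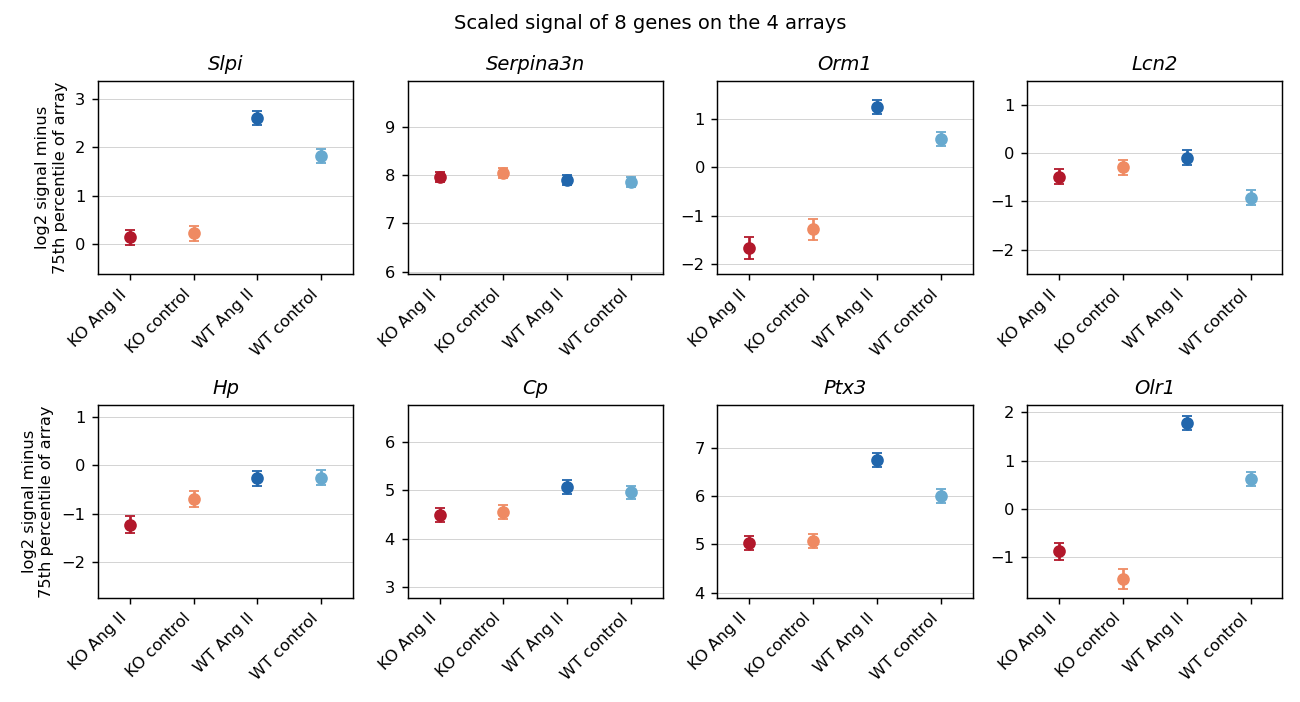
Scaled level of each of the 8 genes measured, as the log2 processed signal minus the 75th percentile of its array (vertical axis, each panel spanning 4 log2 units), on the KO Ang II, KO control, WT Ang II and WT control arrays. Points are single arrays and bars are the scanner's error. The KO points of Slpi, Orm1, Ptx3 and Olr1 lie below both WT points, while those of Serpina3n lie 0.06 to 0.17 above the WT points of the same treatment.

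Hp and Cp, which carry free haemoglobin and copper in plasma, were lower in KO by smaller amounts. Hp read 22.2 in KO Ang II and 29.2 in KO control, against 51.8 in WT Ang II and 49.0 in WT control. Both WT arrays were alike and KO Ang II was the lowest. The KO to WT log2 ratio was −0.96 with Ang II (1.95-fold lower) and −0.44 without (1.35-fold lower), with scanner errors of 0.24 and 0.23. Hp was the 1 gene of the 8 without a higher level with Ang II in WT, at −0.01, and its ratio in KO was −0.53, rank 243 from the lowest of 8717 genes. Hpx, the haem carrier of plasma, gave −0.82 for Ang II in KO and 0.15 in WT. The haemoglobin receptor Cd163 was well above background on the 2 control arrays and WT Ang II but not on KO Ang II, with ratios of Ang II to control of −0.66 as a bound in KO and −1.66 in WT. Hmox1, which breaks down haem, was lower in KO, at −0.56 with Ang II and −0.51 without.

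Cp, ceruloplasmin, the ferroxidase that carries copper, was read by 2 probes that differed in size. The brighter gave 1165 in KO Ang II and 1109 in KO control, against 2091 in WT Ang II and 1822 in WT control. The other gave 61.1, 58.1, 150 and 115 on the same 4 arrays. Both probes placed both KO arrays below both WT arrays. KO over WT was −0.58 with Ang II and −0.40 without by the brighter probe, and −1.03 and −0.68 by the dimmer one, which passes 2-fold with Ang II. The Ang II ratio was −0.07 in KO by both probes, and 0.11 and 0.29 in WT.

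Ptx3, long pentraxin 3, a pattern recognition protein that binds complement C1q, was lower in KO with a bright signal. It read 1707 in KO Ang II and 1587 in KO control, against 6715 in WT Ang II and 3779 in WT control. The KO arrays were alike, and WT Ang II stood above WT control. The log2 ratio of KO to WT was −1.72 with Ang II (3.28-fold lower, error 0.20), rank 50 from the lowest of 8898 genes. Without Ang II it was −0.94 (1.92-fold lower, error 0.20). The ratio of Ang II to control was −0.03 in KO and 0.74 (1.67-fold) in WT. The short pentraxins of the liver, Crp and Apcs, were not well above background on any array.

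Partners of Ptx3 did not share a single pattern. Tnfaip6, the hyaluronan-matrix protein that binds Ptx3, read 7.30 in KO Ang II and 6.35 in KO control, against 31.2 in WT Ang II and 20.5 in WT control. Neither KO signal was well above background, so Tnfaip6 was at least 3.17-fold lower in KO with Ang II and at least 1.98-fold lower without. Fgf2, a growth factor that Ptx3 binds, was higher in KO, at 0.54 with Ang II and 0.73 without. C1qb was lower in KO, at −0.31 with Ang II and −1.09 without, and is also a macrophage marker.

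Olr1 read 28.3 in KO Ang II and 17.3 in KO control, against 213 in WT Ang II and 90.4 in WT control. Both KO arrays were below both WT arrays, and in each genotype the Ang II array was the higher. The KO to WT log2 ratio was −2.65 with Ang II (6.29-fold lower, error 0.22) and −2.07 without (4.21-fold lower, error 0.25). Olr1 was also chosen for low values in KO, so these ratios are a description only. Of the 8 genes, only Olr1 had a higher level with Ang II in both genotypes, at 0.57 in KO (1.49-fold, error 0.26) and 1.15 in WT (2.22-fold, error 0.21). These are rank 148 from the highest of 8717 genes in KO and rank 56 of 9122 in WT. Among other scavenger receptors, Cd36 was −0.93 in KO over WT with Ang II, Scarb1 −0.23 and Cd68 −0.19. Marco was not well above background and Msr1 passed on WT control alone. Lrp1, the receptor that clears protease complexes of serpins and A2m, was 0.34 in KO over WT with Ang II and 0.53 without.

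**Figure D2:**
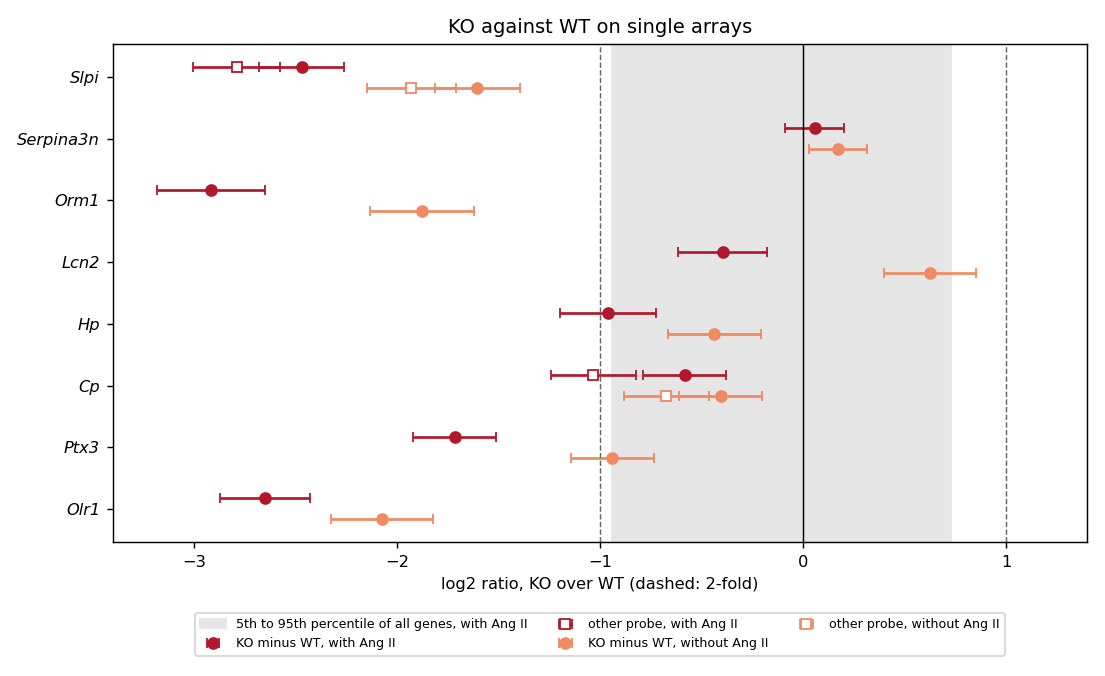
Log2 ratio of KO to WT (horizontal axis) for the 8 genes, with and without Ang II. Filled points are the brightest probe, open squares the second probe of Slpi and Cp, bars the scanner error, dashed lines 2-fold, and the grey band spans the 5th to 95th percentile of all genes with Ang II. Orm1, Olr1, Slpi and Ptx3 lie left of the band with Ang II, Hp stands at its edge, and Serpina3n lies near 0.

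Across the set, 4 of the 8 genes measured were at least 2-fold lower in KO with Ang II (Orm1, Olr1, Slpi and Ptx3) and 0 were higher. The background of that rule over all named genes was 4.42% lower and 1.84% higher. Without Ang II, 3 of 8 were at least 2-fold lower (Olr1, Orm1 and Slpi) and 0 higher, beside 3.32% lower and 2.4% higher among all. With normexp and quantile normalization together the count was 2, since Olr1 (−0.86) and Orm1 (−0.87) no longer passed and Ptx3 (−1.02) did. Since Olr1, Orm1 and Slpi were selected on this contrast, nothing is read from these counts. The members' median log2 ratio was −1.34 with Ang II and −0.69 without, against −0.04 and 0.01 over all named genes. Both KO arrays lay below both WT arrays for 6 of the 8, a pattern held by 31.2% of the 8600 genes detected everywhere. The exceptions were Lcn2 and Serpina3n. Both medians and the 6 include Olr1, Orm1 and Slpi, so nothing is read from them either.

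Ang II over control in WT was above 0 for 7 of 8 genes and past 2-fold for 1, Olr1, with 0 past 2-fold lower. Over all named genes the same rule took in 1.43% as higher and 0.888% as lower, and 44.9% lay below 0. The median was 0.70 for the 8 genes and 0.04 for all. Of the 7, Cp turned to −0.05 with normexp background correction and quantile normalization together, and Serpina3n to −0.12 with quantile normalization alone. Hp, below 0 here, was 0.01 with quantile normalization alone. In KO, Ang II over control was below 0 for 7 of 8, beside 51.1% of all named genes. None passed 2-fold in either direction, beside 0.184% higher and 0.779% lower among all. The median was −0.08 for the 8 genes and −0.01 for all. The Ang II ratios of Serpina3n, Cp, Slpi, Ptx3 and Lcn2 in KO were within their scanner errors.

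The difference of the Ang II ratios, KO minus WT, was below 0 for all 8 genes measured, as for 56% of all genes. It passed 2-fold for Orm1 (−1.04) and Lcn2 (−1.02), in the lower direction, and for 0 in the higher. Among all genes 2.87% passed lower and 1.27% higher. It was −0.87 for Slpi, −0.78 for Ptx3, −0.58 for Olr1, −0.52 for Hp, −0.18 for Cp and −0.11 for Serpina3n. With percentiles taken over detected probes in place of all probes, the Orm1 and Lcn2 values are −0.99 and −0.97, just inside 2-fold. The KO ratios and the WT ratios above share their arrays with the KO to WT ratios, so these are not separate measurements.

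**Figure D3:**
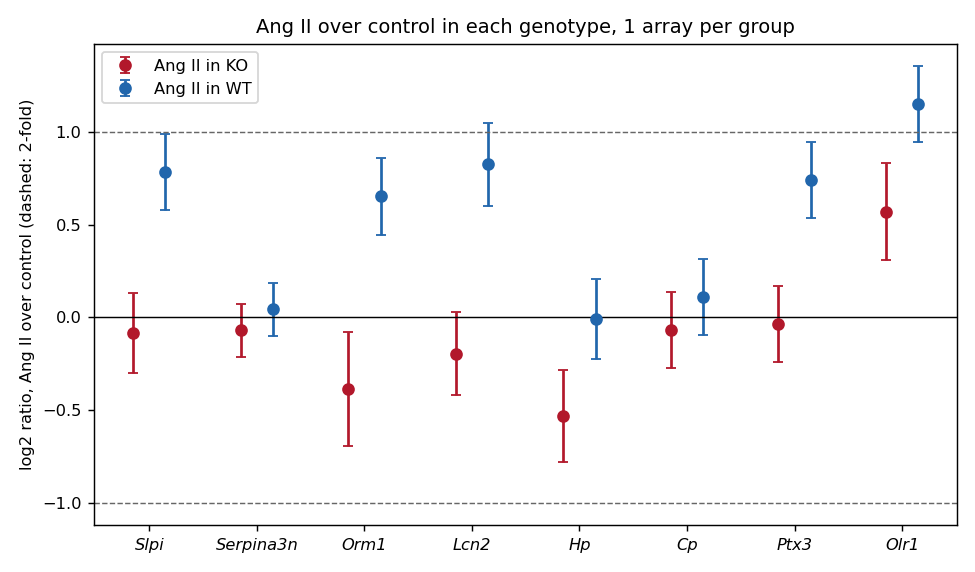
Log2 ratio of Ang II to control (vertical axis) in KO and in WT for the 8 genes, 1 array per group, with bars for the scanner error and dashed lines at 2-fold. The WT points of Slpi, Orm1, Lcn2, Ptx3 and Olr1 lie between 0.65 and 1.15, while the KO points lie below 0 for every gene but Olr1.

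One fit across the 4 arrays was possible, with additive terms for genotype and treatment and 1 residual degree of freedom. limma's moderated test called 0 of the 9387 genes tested for genotype and 0 for treatment after Benjamini-Hochberg adjustment, which is 0% for each. Unadjusted p-values under 0.05 numbered 2459 for genotype and 360 for treatment. For Ptx3 the genotype term was −1.33 ± 0.243 (SE) on the log2 scale, with an adjusted p of 0.106 by limma. It was −0.70 with an adjusted p of 0.145 for Hp, −0.49 and 0.161 for Cp, 0.11 and 0.830 for Lcn2, and 0.11 and 0.664 for Serpina3n, all by limma. The treatment term had an adjusted p of 0.9998 by limma for each of the 8 genes, and was largest for Olr1, at 0.86 ± 0.207. Its spread includes any difference of the Ang II response between genotypes. The genotype term is not given for Orm1, Slpi and Olr1, which were selected on that contrast.

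Other acute phase plasma proteins were taken as a list of 34 genes, all with a probe, of which 20 were detected somewhere. With Ang II, 16 of 19 compared were below 0 in KO over WT and 6 were at least 2-fold lower, with a median of −0.58 and 0 higher. Over all named genes 53.4% were below 0 and 4.42% at least 2-fold lower in that ratio. The 6 were Steap4, a metalloreductase, at −1.97, the endotoxin co-receptor Cd14 at −1.49, tissue factor F3 at −1.30, complement C3 at −1.23, Hpx at −1.01 and Tnfaip6 as a bound. Steap4 read 41.0 in KO Ang II and 37.3 in KO control, against 192 in WT Ang II and 158 in WT control. Both of its KO arrays were below both WT arrays, as for Cd14, F3, C3 and Hpx. That pattern was held by 31.2% of the 8600 genes detected everywhere. Without Ang II, 13 of 19 were below 0 with 2 past 2-fold lower and a median of −0.65, beside 48.8% below 0 and 3.32% past 2-fold lower over all. In WT, Ang II was above 0 for 15 of 20 with none past 2-fold (median 0.19), and in KO for 7 of 17 (median −0.02). Over all named genes 44.9% were below 0 in WT and 51.1% in KO. The complement factor Cfb gave −0.44 in KO and 0.59 in WT, whereas Rbp4, the retinol carrier, gave 0.20 in KO and −0.82 in WT. The metallothioneins Mt1 and Mt2A were 0.09 and −0.02 in KO over WT with Ang II. The fibrinogen chains Fga, Fgb and Fgg, Itih1, Itih3 and Itih4 were not well above background, as for the liver proteins above.

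The cytokines and signalling genes that drive acute phase proteins were a list of 27, with 26 on the array and 24 detected somewhere. With Ang II, 19 of 24 were below 0 in KO over WT and 3 at least 2-fold lower, with a median of −0.33, beside the same 53.4% and 4.42% over all named genes. Those 3 were Tnf at −2.21, Il1a at −1.53 and Il6 at −1.52. Tnf read 44.7 in KO Ang II and 27.0 in KO control, against 247 in WT Ang II and 115 in WT control, and was higher with Ang II in both genotypes (0.59 in KO and 1.01 in WT), as Olr1 was. Il6 read 59.4 in KO Ang II and 64.6 in KO control, against 204 in WT Ang II and 64.4 in WT control. Il6 was thus high on 1 array, with Ang II over control at −0.26 in KO and 1.58 in WT, and no lower level in KO without Ang II (0.32). The NF-kB genes Rela and Nfkb1 gave 0.08 and −0.29 for Ang II in KO, and 0.78 and 0.66 in WT. Without Ang II the list was split 13 above to 11 below 0, with a median of 0.02, while 48.8% of all named genes were below 0. Tnf was past 2-fold lower, and Il11 and Lif, named after their values were seen, were past 2-fold higher (1.42 and 1.34).

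Signal transducers of those cytokines were read as well. Cebpd, a C/EBP factor induced in the acute phase, was −0.81 in KO over WT with Ang II and −0.28 without. Cebpb was −0.14 and 0.20 in the same order, Socs3, a feedback inhibitor induced by STAT3, −0.38 and 0.02, Stat3 0.03 and −0.28, and the shared receptor Il6st −0.28 and −0.30. None of these 5 passed 2-fold in any of the 4 ratios. Of the cytokines not past 2-fold with Ang II, Il1b was −0.77, Lif 0.67 and Il11 0.43 in KO over WT.

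**Figure D4:**
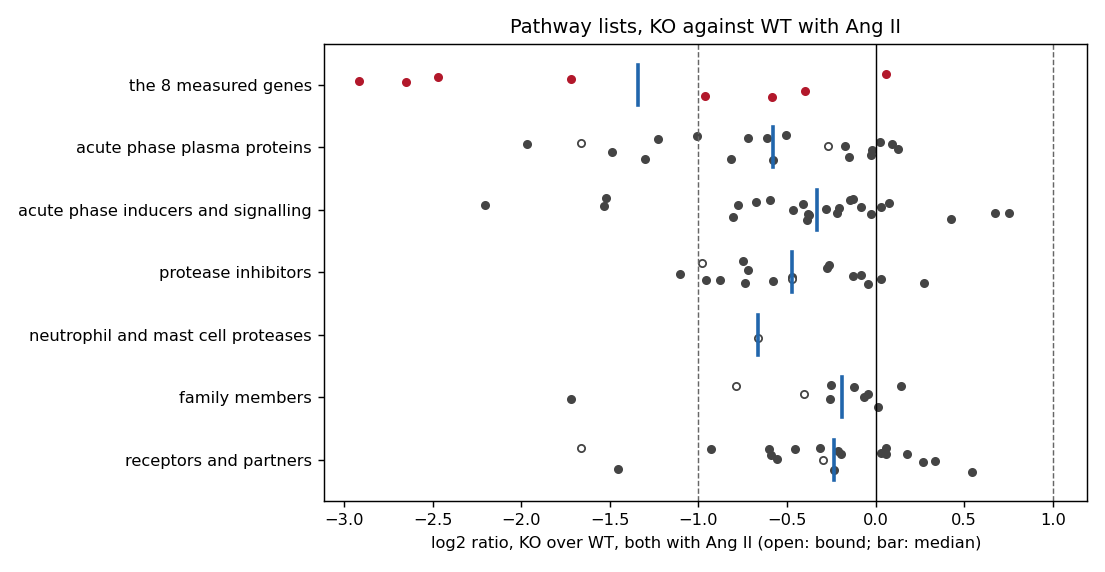
Log2 ratio of KO to WT with Ang II (horizontal axis) for the 8 genes measured and for the 6 pathway lists, with 1 point per gene. Open points are bounds, blue bars are medians and dashed lines mark 2-fold. The median is −1.34 for the 8 genes, 3 of which were selected on this contrast, −0.58 for the acute phase plasma proteins and −0.33 for the inducers.

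The last lists hold the relatives and the receptors of the 9 genes. Of 32 family members, 26 had a probe and 11 were detected somewhere. In KO over WT with Ang II, 8 of 10 compared were below 0 with a median of −0.19, beside 53.4% of all named genes below 0. Apod alone passed 2-fold lower, beside 4.42% of all. Without Ang II 5 of 10 were below 0 with a median of −0.01, beside 48.8% of all. None passed 2-fold, beside 3.32% lower and 2.4% higher among all. The WAP-domain genes Wfdc1 and Wfdc2, relatives of Slpi, were 0.02 and −0.05 in KO over WT with Ang II, against −2.47 for Slpi. Without Ang II they were 0.89 and 0.31, against −1.60 for Slpi. Wfdc1 was lower with Ang II in KO (−0.66) and at 0.22 in WT. Of 23 receptors and partners, 22 had a probe and 20 were detected somewhere. With Ang II 12 of 19 were below 0 in KO over WT with a median of −0.23, beside the same 53.4% of all. The 2 past 2-fold, beside 4.42% of all, were Tnfaip6 and the phospholipase Pla2g4a (−1.45). Without Ang II 11 of 19 were below 0 with a median of −0.46, beside the same 48.8% of all. The 3 past 2-fold lower, beside 3.32% of all, were Cd36 (−1.41 as a bound), Cd163 (−1.30) and C1qb (−1.09). Pla2g4a also gave −0.81 for Ang II in KO and 1.03 in WT. Lists overlap: Tnfaip6 stands in both the plasma and the partner list.

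The genes whose levels over the 4 arrays lay nearest to each of the 8 were found by Euclidean distance between log2 levels centred on their own mean, among 8535 genes. Nearest to Orm1 were Slpi (0.43), Ubd (0.45) and Pdgfrl (0.51). Nearest to Slpi were Ccl12 (0.31), Pdgfrl (0.32) and Kcnk5 (0.33), and nearest to Olr1 were Tnf (0.38), Ubd (0.46) and Slpi (0.62). The likeness of Orm1, Slpi and Olr1 is fixed in part by their selection for low KO values. Between genes not selected so, Hp was 0.39 from Cp, Lcn2 0.56 and Cp 0.61 from Serpina3n, and Ptx3 0.89 from Hp. Ptx3 was 0.71 from Slpi, which was selected so. Ptx3 had Smim15 (0.10), Slc13a3 (0.12) and Naa20 (0.13) nearest, and Hp had Ogt (0.03), Triap1 (0.09) and Rasd1 (0.11). The nearest to Lcn2 was Nbl1 (0.01), to Cp Fndc3b (0.02) and to Serpina3n Nr2c1 (0.01). A distance over 4 arrays is a description, with no test.

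Markers of cell types moved with some of these results. The summed scaled signal of the macrophage list was 29.4 in KO Ang II and 24.7 in KO control, against 46.9 in WT Ang II and 44.4 in WT control, with 9 of 10 markers detected somewhere and Mrc1 nowhere. All 8 macrophage markers compared were below 0 in KO over WT without Ang II (median −0.85), and 8 of 9 with Ang II (median −0.31). Over all named genes 48.8% were below 0 without Ang II and 53.4% with it. Adgre1 had the lowest KO to WT ratio of the macrophage markers compared, both with and without Ang II. Its signals were 21.4 in KO Ang II and 17.5 in KO control, against 106 in WT Ang II and 60.1 in WT control. The fat cell list summed to 3.81 in KO Ang II and 3.31 in KO control, against 4.39 in WT Ang II and 6.03 in WT control. It had 4 of 7 markers detected, and Lep, Cidec and Lpl nowhere. Without Ang II all 4 were below 0 in KO over WT (median −1.05), with Adipoq at −2.16 and Fabp4 at −1.25, both as bounds. With Ang II 3 of 4 were below 0 (median −0.45), with Adipoq at −1.22. The sums were 303 and 332 in KO Ang II and KO control, against 384 and 357 in WT Ang II and WT control, for 7 fibroblast markers. For 8 smooth muscle markers they were 207 and 187 in KO, against 134 and 145 in WT, in the same order. The sums add signals that are not logged, so bright genes such as Dcn and Myh11 weigh most. Of the 8, Des alone was lower in KO without Ang II, at −1.11, and Lmod1 alone with Ang II, at −0.26. Endothelial sums were 20.2 and 18.4 in KO, against 21.9 and 24.5 in WT. Red cell genes summed to 25.1 and 17.9 in KO, against 29.3 and 16.3 in WT, and mesothelial genes to 1.97 to 2.59 with 3 of 10 above background. Of 7 T cell markers 2 were above background, and of 6 epithelial markers 0. The part of these cell types in the results for Slpi, Orm1, Olr1 and Ptx3 was not tested, and fewer cells of a type and less RNA per cell cannot be told apart in these vessels.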

How the data were processed

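Total RNA of each group was labelled with Cy3 and hybridised to 1 Agilent array, per the labels' protocols. The deposited scanner files hold, per the file headers, a processed signal (an intensity after background subtraction and detrending within the array), its error and median pixel signals (intensities), and flags of 0 or 1 for signal well above background, saturation and outliers. The submitters' processing notes name Feature Extraction 12.1.1.1, the file headers 10.7.1.1. The value table deposited by the authors is on the log2 scale and equalled the log2 processed signal plus a constant per array within 0.01 for 98.02% to 98.12% of probes. No source used here gives the reason for the constants.

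Outlier spots (301 to 372 per array) were left out, spots of a probe were averaged, and 4 of 45598 probes with no spot left on some array were dropped. For the main value, the 75th percentile of each array was subtracted from its log2 signals. Gene names, from RefSeq's rat table (GRCr8), were found for 21107 probes (16580 genes), and 24487 probes are unnamed. The brightest detected probe stood for a gene. A probe counted as detected where a share of 0.5 or more of its spots was well above background. Where only 1 side of a ratio was detected, the other side took the lowest value that was well above background in every spot, or its own value if higher, and the ratio is a bound. Replicate spots had a median SD of 0.064 to 0.0718 log2. The number of arrays limits the precision.

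Ratios of single arrays were called by size alone, at 2-fold, without a test. The additive fit used limma 3.58.1 in R 4.3.3 on genes detected on 2 arrays or more, two-sided, with Benjamini-Hochberg adjustment at 0.05. Its code was run on simulated arrays with the same spread for every gene and no difference of response between genotypes. That does not show how the fit performs on these arrays. The fit took dim values as read. Other steps used Python 3.11.15, numpy 2.4.6, pandas 2.3.3 and matplotlib 3.10.9. Alternatives were other scalings, quantile normalization, normexp background correction, the deposited log2 table, the mean of a gene's probes, dim values as read, no filter, and a variance trend.

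The members and lists were chosen with earlier results of these data known. Genes were named by a rule: the 9 members and Prkcb, then per list the 4 largest KO to WT ratios with Ang II and the 2 largest for Ang II in WT, and 12 fixed genes of interleukin-6 signalling and of the members' receptors. The 3 genes nearest to each member in level over the arrays were named as well. Other list genes in the text were chosen after their values were seen. Some were left out for length. Symbols of 18 list genes had no matched probe.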

Additional observations from a re-analysis of the deposited data

Results flagged for a closer look

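For 6 of the 8 genes measured, Ang II over control was below 0 in KO and above 0 in WT. Over all named genes 51.1% were below 0 in KO and 44.9% were below 0 in WT. The share of all genes with such opposite signs was not counted, so nothing is read from the 6. The difference of the log2 ratios, KO minus WT, was −1.04 for Orm1, −1.02 for Lcn2, −0.87 for Slpi, −0.78 for Ptx3, −0.18 for Cp and −0.11 for Serpina3n. None of these differences was tested, since each rests on 4 single arrays with no residual degree of freedom. The KO ratio lay within its scanner error of 0 for Lcn2, Slpi, Ptx3, Cp and Serpina3n, and the WT ratio did so for Cp and Serpina3n as well.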

How the results depend on the processing

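The limits are those of 4 arrays: no ratio has a replicate, dim genes such as Orm1 and Olr1 in KO rest on signals near background, and the 2-fold rule cuts values that differ little. No paired analysis was possible because each group holds 1 array. Under 8 alternatives, all 64 values per comparison kept their sign in both KO to WT ratios and in the KO ratio of Ang II to control. Signs changed in 5 of 64 for Ang II in WT and 2 of 64 for the difference of responses, all of Hp, Cp or Serpina3n, whose values lay near 0. Normexp background correction with an offset of 50 followed by quantile normalization, 2 choices tried together and called normexp below, left 0 genes of the set past 2-fold for Ang II in WT (Olr1 at 0.87) and 0 for the difference of responses (Orm1 −0.36, Lcn2 −0.43). With it, KO over WT without Ang II was −0.87 for Orm1, −0.86 for Olr1, −1.08 for Slpi and −1.02 for Ptx3, and with Ang II −1.22, −1.57, −1.61 and −1.65 in that order. Quantile normalization alone left Olr1 at 1.13 for Ang II in WT, and Orm1 at −2.85 and Olr1 at −2.58 in KO over WT with Ang II. The count for the difference was 0 with the 75th percentile of detected probes, 1 with their median (Orm1) and 1 with quantile normalization (Lcn2). With a variance trend in limma, 2 of the 5 genes not chosen by KO values passed for genotype. They were Ptx3 (adjusted p = 0.00216 by limma) and Cp (adjusted p = 0.0268 by limma). Of all 9387 genes tested, 575 passed as higher and 767 as lower, so calls were common with this setting. The cause was not tested. Among all named genes, counts past 2-fold moved by over 1.5 times under 3 settings. In KO over WT with Ang II, 26 were higher and 93 lower with normexp, 220 and 637 with dim values as read, and 652 and 1129 with no filter, against 176 and 423 as reported. Without Ang II they were 46 and 61, 281 and 529, and 891 and 945, against 227 and 314. For Ang II in KO they were 0 and 4, 90 and 150, and 393 and 792, against 17 and 72. For Ang II in WT they were 23 and 8, 248 and 180, and 719 and 794, against 140 and 87. For the difference they were 18 and 53 with normexp and 1013 and 1465 with no filter, against 109 and 247. Without a filter the median of all genes was 0.17 in KO over WT without Ang II and −0.10 for Ang II in KO.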
